A study of Homo sapiens with 12 samples.

Results

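The transcripts of 10 immediate early genes outside the AP-1 family were followed in RNA-seq of HCT116 cells, a diploid colon cancer cell line. They comprise the EGR transcription factors (EGR1, EGR2, EGR3), the NR4A orphan nuclear receptors (NR4A1, NR4A2), IER2 and IER5, and the ZFP36 mRNA-decay factors (ZFP36, ZFP36L1, ZFP36L2). The genes were chosen by name, as 10 of the 26364 gene symbols counted. No measured value entered the rule, but earlier results of these data were known when it was made. The study asked how topoisomerase inhibitors change TNFα-triggered transcription and what part the NF-κB subunit p65 has in it. WT HCT116 cells and a p65-deficient derivative received no inhibitor, 5 µM CPT (camptothecin, which traps topoisomerase I on DNA) or 5 µM ICRF193 (a catalytic topoisomerase II inhibitor) for 2 h, with or without a further 1 h of TNFα at 20 ng/mL. The p65-deficient cells are 1 single-cell clone, number 32, so loss of p65 and other features of the clone cannot be told apart. The labels name an shRNA against p65 and the study's methods a CRISPR-Cas9 clone. Each of the 12 combinations was sequenced once, so no value below has a replicate.

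Immediate early genes are transcribed within minutes of a stimulus without new protein synthesis, and many of their mRNAs are short-lived. Growth factor and stress signals reach EGR1 through serum response factor bound at CArG boxes together with ternary complex factors, and reach other members through CREB or NF-κB. ZFP36, also called tristetraprolin, and its relatives bind AU-rich elements in the 3′ ends of transcripts, including those of cytokines, and bring the CCR4-NOT deadenylase to them.

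Promoter sequences were taken from RefSeq (GRCh38.p14), which held 7 of the 10 genes. EGR3, NR4A2 and ZFP36L2 were not matched. The windows below are the 250 bases before a transcription start, shown for EGR1 and EGR2, which had the highest log2 fold changes of the matched genes under CPT, and for ZFP36L1, which fell. Capitals mark a CArG box in the EGR windows and the CRE, the CREB binding sequence TGACGTCA, in the ZFP36L1 window. EGR1 lies on the plus strand (chr5:138465229-138465478), and the EGR2 (chr10:62816367-62816616) and ZFP36L1 (chr14:68793417-68793666) windows on the minus strand.
EGR1: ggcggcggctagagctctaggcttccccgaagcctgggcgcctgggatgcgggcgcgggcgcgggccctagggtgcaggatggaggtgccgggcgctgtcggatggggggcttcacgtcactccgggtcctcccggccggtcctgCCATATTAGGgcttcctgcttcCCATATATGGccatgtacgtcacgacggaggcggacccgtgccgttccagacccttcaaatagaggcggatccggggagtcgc
EGR2: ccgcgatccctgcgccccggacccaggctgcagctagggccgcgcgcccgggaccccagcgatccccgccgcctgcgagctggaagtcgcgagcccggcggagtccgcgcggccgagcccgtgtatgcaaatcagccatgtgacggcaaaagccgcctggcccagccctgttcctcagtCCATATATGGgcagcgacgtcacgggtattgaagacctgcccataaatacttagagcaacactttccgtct
ZFP36L1: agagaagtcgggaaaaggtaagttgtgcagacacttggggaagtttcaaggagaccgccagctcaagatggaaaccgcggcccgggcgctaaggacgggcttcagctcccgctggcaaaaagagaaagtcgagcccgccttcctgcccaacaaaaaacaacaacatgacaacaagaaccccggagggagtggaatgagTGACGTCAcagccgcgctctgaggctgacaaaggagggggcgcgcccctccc
In the EGR1 window CArG boxes ended 96 and 74 bases before the start, and in the EGR2 window a CArG box ended 62 bases before it. A CArG box was held by 1.16% of 35116 promoter windows of this length, searched on both strands, and among the matched members by EGR1 and EGR2 alone. The CRE was held by 1.65% of windows and among the members by ZFP36L1 alone, 45 bases before the start. Percentages here are over windows, whereas a member was counted if any of its windows held the site. The EGR2 windows not shown held none of the sites searched, and the ZFP36L1 window not shown held no CRE. The shorter TGACG, which lies within the CRE, was found in EGR1, EGR2, IER2 and ZFP36L1 and in 21.2% of windows. An EGR site (GCGNGGGCG) stood in the EGR1 window and in 8.41% of windows. The NF-κB site (5.21% of windows), the NR4A monomer site AAAGGTCA (1.05%) and TATAAA (6.8%) had no match in the 250 bases before the starts of the 7 members. A match is a stretch of letters and not a measured binding site.

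Libraries held 8101212 to 22051046 counted reads. In 4 of the p65-deficient libraries, ICRF193 at 0 h and all those at 1 h of TNFα, 8101212 to 8755001 reads were counted, so that 2 of the 3 TNFα pairs of the clone set a shallow library against a deep one. RELA, which encodes p65, had 694 to 909 normalised reads in WT and 548 to 673 in p65-deficient libraries; an edited gene can still be transcribed, and mRNA level does not measure p65 protein. The epithelial marker list, 8 of 8 genes with at least 20 reads, summed to 3764 to 4033 TPM (reads scaled to exon length and library depth) in WT and 4178 to 4599 in p65-deficient cells. Fibroblast markers summed to 1.49 to 4.07 TPM and leukocyte markers to 0.555 to 1.81 TPM, with the T cell gene CD3E at 0 reads in the 12 libraries. Levels below are read counts divided by a library size factor (normalised reads). Levels of different genes are compared only as TPM, which corrects for exon length.

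Per exon length the members spanned a wide range. IER2 stood highest with 90.2 to 229 TPM (median 113), above IER5 with 58.5 to 117 TPM (median 71.0), and the 2 ranges overlapped. ZFP36 (17.4 to 45.1 TPM), ZFP36L1 (17.7 to 40.8 TPM), ZFP36L2 (12.3 to 18.8 TPM) and NR4A1 (6.72 to 23.4 TPM) came next, and neighbours in this order overlapped. EGR1 (2.35 to 18.7 TPM) and NR4A2 (1.31 to 5.64 TPM) were lower, and EGR2 (0.0668 to 2.37 TPM) and EGR3 (0 to 1.95 TPM) were close to the detection limit outside CPT.

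**Figure D1:**
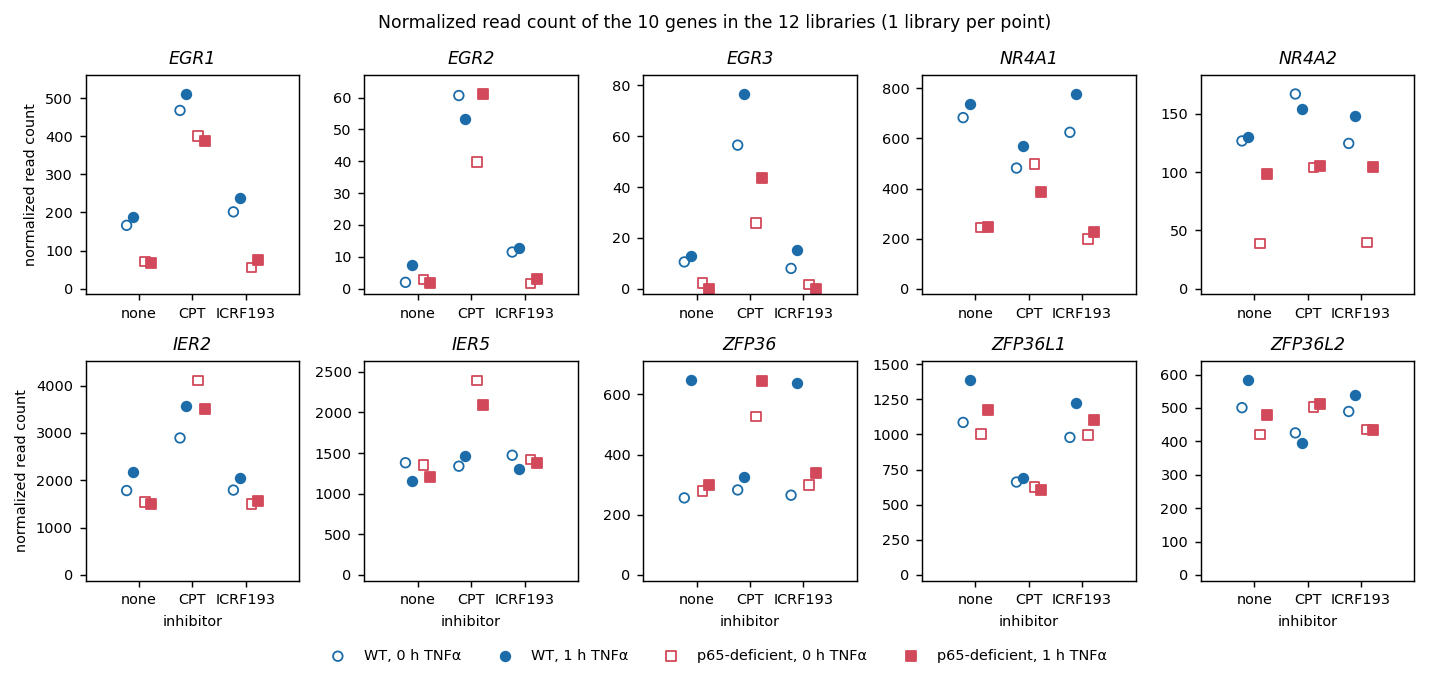
Normalised read count (y axis, linear) of each of the 10 genes by inhibitor (x axis), 1 library per point. Circles are WT and squares p65-deficient libraries, open at 0 h and filled at 1 h of TNFα. The CPT points of EGR1, EGR2, EGR3 and IER2 lie above all other points of their cell line, and those of ZFP36L1 below them.

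CPT raised all 3 EGR transcripts, both IER transcripts and NR4A2, and lowered ZFP36L1, over the 4 matched pairs of libraries with and without CPT (edgeR quasi-likelihood test, pair as block, adjusted p under 0.05). NR4A1, ZFP36 and ZFP36L2 did not pass the test, and NR4A1 and ZFP36L2 had opposite signs in the 2 cell lines. Of all 13993 genes tested, 23.2% were called higher and 25.1% lower, against 6 higher and 1 lower of the 10 members. In the libraries without inhibitor EGR2 held 1 to 9 reads and EGR3 0 to 16. Both passed the low-count filter through the CPT libraries, where they were high, so they add no support to the count of 6. Both were also called higher without that filter. The median log2 fold change was 0.49 over the members and 0.02 over all genes. The members are short genes: 9 of 10 span at most 10000 bp, with a median span of 5039 bp against 25384 bp over 13675 genes. Of the 3574 tested genes of that length 43.8% were called higher under CPT, against 15.8% of 9988 longer genes. The part of gene length in the members' response was not tested.

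EGR1, a zinc finger factor that binds GC-rich promoters, maps to chr5:137801181-137805004 of hg19. In WT cells it had 166 and 188 normalised reads without inhibitor (0 and 1 h of TNFα), 468 and 511 with CPT and 201 and 238 with ICRF193. The p65-deficient cells had 70.9 and 68.0 without inhibitor, 401 and 388 with CPT and 55.2 and 74.2 with ICRF193. The 4 CPT libraries were the 4 highest, and in every condition the p65-deficient library was the lower of the pair. The log2 fold change with CPT was 1.87 (SE 0.17, edgeR adjusted p = 5.55e-06), made up of log2 ratios of 1.49 and 1.44 in WT and 2.50 and 2.51 in p65-deficient cells. That difference between the lines was 1.01 on the log2 scale (SE 0.16, edgeR adjusted p = 0.00213).

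EGR2 (hg19 chr10:64571756-64578927) was counted with 3, 9, 13 and 16 reads in the WT libraries without CPT and with 73 in each WT library with CPT. The p65-deficient libraries held 1 to 4 reads without CPT, and 51 and 35 with it. CPT libraries did not overlap the others in either line. The log2 fold change was 3.84 (SE 0.32, edgeR adjusted p = 3.15e-06), the highest among the members, and on so few reads the log2 ratio of a single pair had a 95% counting interval as wide as 2.60 to 10.5. EGR3, a paralogue on hg19 chr8:22545174-22550815, gave 9 to 19 reads in WT libraries without CPT, 68 and 105 with it, 0 to 3 reads in p65-deficient libraries without CPT, and 33 and 25 with it. Again the CPT libraries stood apart, and the p65-deficient ones were lower than WT in every condition. Its log2 fold change with CPT was 2.83 (SE 0.31, edgeR adjusted p = 2.54e-05). This value depends on the prior count of the fit, since EGR3 was at 0 in the p65-deficient library with TNFα alone. Against a floor of 3 reads in that library, EGR3 was at least 8.56-fold higher with CPT. The difference of the CPT effect between lines was 0.47 (SE 0.83, edgeR adjusted p = 0.806) for EGR2 and 1.78 (SE 0.78, edgeR adjusted p = 0.213) for EGR3, wide enough to hold the size seen in EGR1.

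The NR4A receptors bind DNA without a known endogenous ligand and are induced by stress and cyclic AMP signals. NR4A1 (hg19 chr12:52416616-52453291, the one member longer than 10000 bp) had 683 and 736 normalised reads in WT cells without inhibitor, 482 and 569 with CPT and 625 and 778 with ICRF193. In p65-deficient cells it had 245 and 246 without inhibitor, 499 and 384 with CPT and 199 and 226 with ICRF193. The CPT libraries were thus the lowest in WT and the highest in the clone. The single-pair log2 ratios of CPT to no inhibitor were -0.50 and -0.37 in WT and 1.03 and 0.64 in the clone, each with a counting interval that left out 0. Over the 4 pairs the fold change was 0.12 (SE 0.21, edgeR adjusted p = 0.657), and the difference between lines was 1.30 (SE 0.14, edgeR adjusted p = 5.12e-05). NR4A2 (hg19 chr2:157180944-157189287) had 127 and 130 normalised reads in WT cells without inhibitor, 167 and 154 with CPT and 125 and 148 with ICRF193. In the clone it had 38.6 and 98.6, 104 and 105, and 39.4 and 104 in the same order. The lowest levels were thus the 2 p65-deficient libraries with neither CPT nor TNFα. Its log2 fold change with CPT was 0.51 (SE 0.18, edgeR adjusted p = 0.0337). Without the p65-deficient pair at 0 h it was 0.26 (edgeR adjusted p = 0.123), and without the WT pair at 0 h it was 0.56 (edgeR adjusted p = 0.0681).

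IER2 (hg19 chr19:13261282-13265718) and IER5 (hg19 chr1:181057638-181059979, a single exon) encode short nuclear proteins of one family. IER2 had 1783 and 2174 normalised reads in WT cells without inhibitor, 2894 and 3571 with CPT and 1793 and 2055 with ICRF193. The clone gave 1536 and 1497, 4113 and 3503, and 1496 and 1560. CPT libraries were again the 4 highest. The log2 fold change was 1.00 (SE 0.10, edgeR adjusted p = 1.35e-05) and was larger in the clone by 0.60 (SE 0.08, edgeR adjusted p = 0.000676). IER5 had 1380 and 1150 normalised reads in WT cells without inhibitor, 1338 and 1464 with CPT and 1473 and 1306 with ICRF193. Those 6 libraries overlapped throughout, whereas in the clone the CPT libraries, with 2396 and 2087, stood above the 1210 to 1418 of the other 4. The log2 fold change of IER5 over the 4 pairs was 0.47 (SE 0.11, edgeR adjusted p = 0.00581), with a difference between lines of 0.63 (SE 0.11, edgeR adjusted p = 0.00437).

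The ZFP36 family split under CPT. ZFP36L1 (hg19 chr14:69254372-69262960) fell in both lines: WT levels were 1086 and 1386 normalised reads without inhibitor, 661 and 689 with CPT and 979 and 1222 with ICRF193. In the clone they were 1004 and 1173, 627 and 608, and 997 and 1101. All 4 CPT libraries lay below the other 8. The log2 fold change was -0.84 (SE 0.07, edgeR adjusted p = 2.52e-06), and the lines differed by 0.05 (SE 0.12, edgeR adjusted p = 0.866). ZFP36 (hg19 chr19:39897487-39900052) had 282 and 325 normalised reads with CPT in WT cells, against 256 and 647 without inhibitor and 265 and 636 with ICRF193. In the clone it had 526 and 646 with CPT, against 279 and 299 without inhibitor and 298 and 340 with ICRF193. With CPT the clone was thus the higher line, and with TNFα but no CPT it was the lower. The log2 fold change over 4 pairs was 0.25 (SE 0.26, edgeR adjusted p = 0.46), and the difference between lines 1.46 (SE 0.25, edgeR adjusted p = 0.00336). Leaving out the WT pair at 1 h, in which ZFP36 was -0.99, gave 0.70 (edgeR adjusted p = 0.00466). ZFP36L2 (hg19 chr2:43449541-43453745) had 501 and 583 normalised reads in WT without inhibitor, 425 and 396 with CPT and 489 and 539 with ICRF193. In the clone it had 421 and 478, 503 and 512, and 435 and 433, with CPT highest where in WT it was lowest. Over the 4 pairs it changed by -0.13 (SE 0.11, edgeR adjusted p = 0.38), and the lines differed by 0.57 (SE 0.13, edgeR adjusted p = 0.0242). Without the p65-deficient pair at 0 h that difference was 0.48 (edgeR adjusted p = 0.238), and the fold change over the pairs left was -0.28 (edgeR adjusted p = 0.034).

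**Figure D2:**
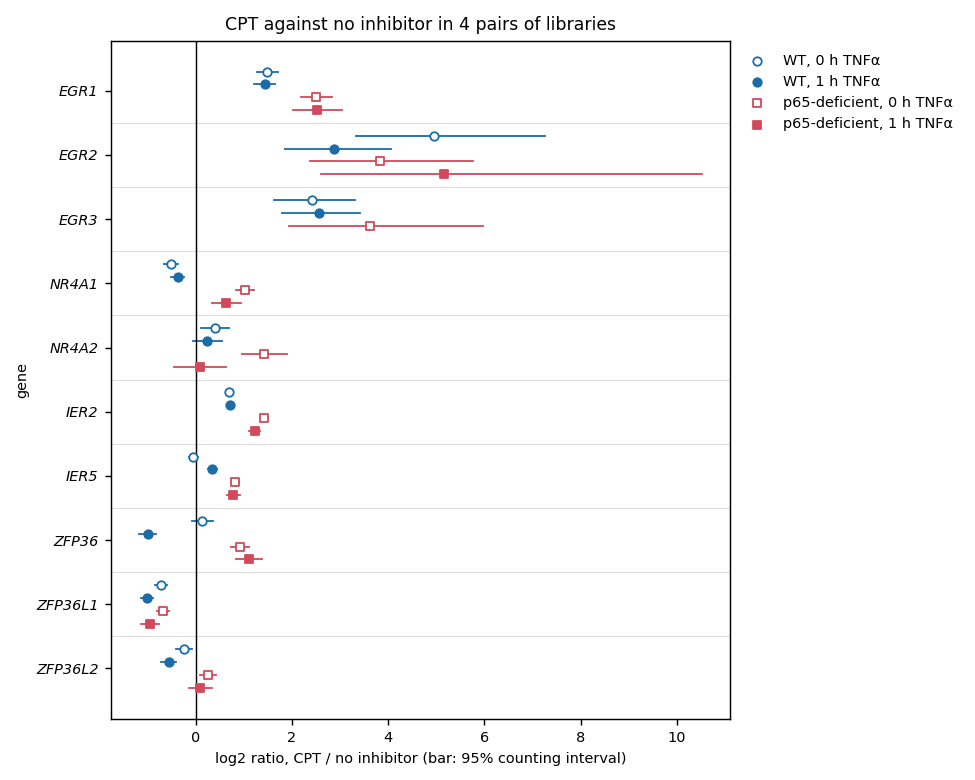
Log2 ratio of CPT to no inhibitor (x axis) for each gene (y axis) in the 4 pairs of libraries, with 95% counting intervals as bars and no point where a library held 0 reads. NR4A1 and ZFP36L2 lie left of 0 in both WT pairs and right of it in both p65-deficient pairs, while ZFP36L1 lies left of 0 in all 4.

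As shares of the summed ZFP36 family TPM, ZFP36 made up 26.5% in WT cells without treatment and 42.4% after TNFα. ZFP36L1 made up 48.8% and 39.4%. With CPT the WT family was nearly even between ZFP36 (36.6% and 40.0%) and ZFP36L1 (37.2% and 36.8%). In the clone, CPT took ZFP36 from 30.5% to 50.8% at 0 h and from 28.9% to 56.1% at 1 h of TNFα. The summed family level was 52.5 TPM with CPT and 65.6 TPM without it in WT cells at 0 h, and 53.1 against 104 TPM at 1 h. In the clone it was 67.5 against 62.7 TPM and 80.4 against 77.7 TPM. These shares have no replicate and were not tested.

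**Figure D3:**
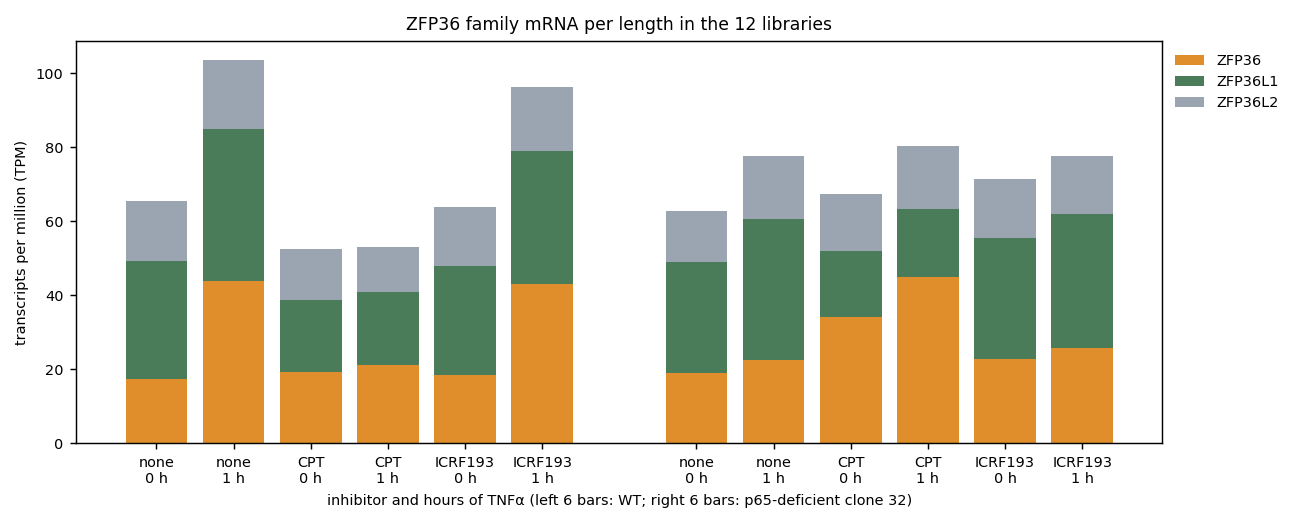
Summed TPM (y axis) of ZFP36, ZFP36L1 and ZFP36L2 in each library (x axis), stacked from bottom to top. The tallest bars, 104 and 96.4 TPM, are the WT libraries with TNFα and no CPT. The ZFP36 segment is the largest of the 3 in both p65-deficient CPT bars and in every WT bar with TNFα.

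The log2 fold change with CPT was higher in p65-deficient than in WT cells for 6 of the 10 members (EGR1, NR4A1, IER2, IER5, ZFP36, ZFP36L2), and lower for none. Over 13993 genes 2.3% were called higher and 2.22% lower (edgeR). Of the 6, NR4A1 and ZFP36L2 had negative CPT ratios in both WT pairs and positive ones in both pairs of the clone. Among the members 7 had an unadjusted p under 0.05, the seventh being EGR3, against 19.8% of all genes, and DESeq2 called 4 higher and 0 lower. The median difference was 0.62 over the members and -0.02 over all genes. Counted in single pairs, 3 members were more than 2-fold higher with CPT in WT cells at 0 h, 3 in WT at 1 h, 6 in the clone at 0 h and 5 in the clone at 1 h. The share of 13823 genes past that ratio was 5.11%, 6.32%, 6.31% and 6.11% in the same pairs. EGR2 and EGR3, counted in each of these pairs, reached the 20 reads required only in CPT libraries. In the WT pair at 1 h, 1 member, ZFP36L1, was more than 2-fold lower, as were 5.36% of genes.

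With CPT, the 2 lines came closer together for EGR1 and NR4A1, and moved apart for IER5. Without CPT the clone's EGR1 level was lower than WT by log2 ratios of -1.23 to -1.87, and with CPT by -0.22 and -0.40. NR4A1 ratios ran from -1.48 to -1.78 without CPT and were 0.05 and -0.57 with it. The IER5 ratios were -0.03 and 0.07 without inhibitor and 0.84 and 0.51 with CPT. At 0 h of TNFα the ZFP36 ratio was 0.12 without inhibitor and 0.90 with CPT. Over all 6 pairs, EGR1 was lower in the clone by a log2 fold change of -0.94 (SE 0.18, edgeR adjusted p = 0.00122), EGR3 by -1.42 (SE 0.32, edgeR adjusted p = 0.00386), NR4A1 by -1.11 (SE 0.19, edgeR adjusted p = 0.000568) and NR4A2 by -0.87 (SE 0.16, edgeR adjusted p = 0.00111). In this comparison 16.9% of 13730 genes were called lower and 15.2% higher, against 4 and 0 of the 10 members. With total counts in place of TMM normalisation the split over all genes was 2436 higher and 1802 lower, against 2092 and 2316. IER5 stood at 0.25 (SE 0.09, edgeR adjusted p = 0.0504), EGR2 at -0.51 (SE 0.28, edgeR adjusted p = 0.178), and IER2 and the ZFP36 family between -0.13 and 0.06. Leaving out the CPT pair at 0 h gave IER2 at -0.27 (edgeR adjusted p = 0.00113). Without the ICRF193 or the untreated pair at 0 h, IER5 was at 0.31 and 0.32 (edgeR adjusted p = 0.0332 and 0.039).

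TNFα raised ZFP36, IER2 and ZFP36L1 in WT cells, and no member fell, where 0.613% of 13707 genes were called higher and 0.0292% lower. The changes in IER2 and ZFP36L1 were small. ZFP36 rose by 0.97 on the log2 scale over 3 pairs (SE 0.13, edgeR adjusted p = 5.8e-05). Its level went from 256 to 647 normalised reads without inhibitor and from 265 to 636 with ICRF193, but from 282 to 325 with CPT. The single-pair log2 ratios were 1.34 (95% counting interval 1.16 to 1.52), 1.26 (1.07 to 1.46) and 0.20 (-0.01 to 0.41). The CPT pair thus did not overlap the other two. IER2 rose by 0.26 (SE 0.04, edgeR adjusted p = 0.00154), with ratios of 0.29, 0.20 and 0.30. ZFP36L1 rose by 0.25 (SE 0.06, edgeR adjusted p = 0.0327), with 0.35 and 0.32 in the pairs without CPT and 0.06 with it. Leaving out the ICRF193 pair gave ZFP36L1 an edgeR adjusted p of 0.804, and leaving out the untreated pair one of 1. It was 0.0618 with total counts in place of TMM and 0.0769 with libraries thinned to the shallowest. EGR1 (0.17), EGR2 (0.03), EGR3 (0.48), NR4A1 (0.22), NR4A2 (0.05), IER5 (-0.10) and ZFP36L2 (0.09) did not pass. Without the CPT pair, IER5 at -0.22 (edgeR adjusted p = 0.000344) and NR4A1 at 0.20 (edgeR adjusted p = 0.0303) did. DESeq2 called IER2 alone (adjusted p = 0.0064), and gave ZFP36 0.94 (adjusted p = 1) and ZFP36L1 0.25 (adjusted p = 0.655). In the untreated WT pair alone, 2 members passed a 2-fold rise, ZFP36 and, on 3 and 9 reads, EGR2, where 0.781% of 13823 genes did.

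In the p65-deficient clone no member passed the TNFα test, with 8 tested, EGR2 and EGR3 having too few reads. There 0.28% of 12858 genes were called higher and 0.218% lower by edgeR, and total counts in place of TMM gave 28 higher and 11 lower against 36 and 28. At an unadjusted p under 0.05, 3 members passed (NR4A2, IER5, ZFP36), against 13.1% of all genes, and DESeq2 called 0. ZFP36 changed by 0.22 (SE 0.08, edgeR adjusted p = 0.249), with pair ratios of 0.10, 0.30 and 0.19. NR4A2 changed by 0.76 (SE 0.20, edgeR adjusted p = 0.0701). Its pair ratios were 1.35 (0.80 to 1.91) without inhibitor, 1.40 (0.72 to 2.13) with ICRF193 and 0.01 (-0.45 to 0.46) with CPT. Without the CPT pair NR4A2 was at 1.38 (edgeR adjusted p = 3.53e-07). The ICRF193 pair compared 2 shallow libraries and held 25 and 66 NR4A2 reads. Neither WT pair without CPT showed such a step, at 0.04 and 0.25.

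The difference of the TNFα effect between the lines passed for 0 of 10 members by edgeR and by DESeq2, and for 4 at an unadjusted p under 0.05, a threshold passed by 10.3% of all genes. Over all genes the log2 fold change with TNFα was called higher in WT for 0.204% and lower for 0.0146%. ZFP36 was larger in WT by 0.75 (SE 0.20, edgeR adjusted p = 0.231), IER2 by 0.34 (SE 0.07, edgeR adjusted p = 0.0554) and NR4A1 by 0.34 (SE 0.12, edgeR adjusted p = 0.422), and NR4A2 was at -0.71 (SE 0.25, edgeR adjusted p = 0.417). Without the WT CPT pair ZFP36 was at 1.08 (edgeR adjusted p = 8.87e-08) and IER2 at 0.33 (edgeR adjusted p = 0.0252). With the CPT pair of 1 line left out, the lines are compared over unlike sets of inhibitors. Leaving out the untreated WT pair gave ZFP36 0.54 (edgeR adjusted p = 0.458). Leaving out the p65-deficient ICRF193 pair gave IER2 0.40 (edgeR adjusted p = 0.0155). Without the p65-deficient CPT pair NR4A2 was at -1.33 (edgeR adjusted p = 0.00858) and IER2 at 0.24 (edgeR adjusted p = 0.433). Without the untreated p65-deficient pair NR4A2 was at -0.44 (edgeR adjusted p = 0.901).

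**Figure D4:**
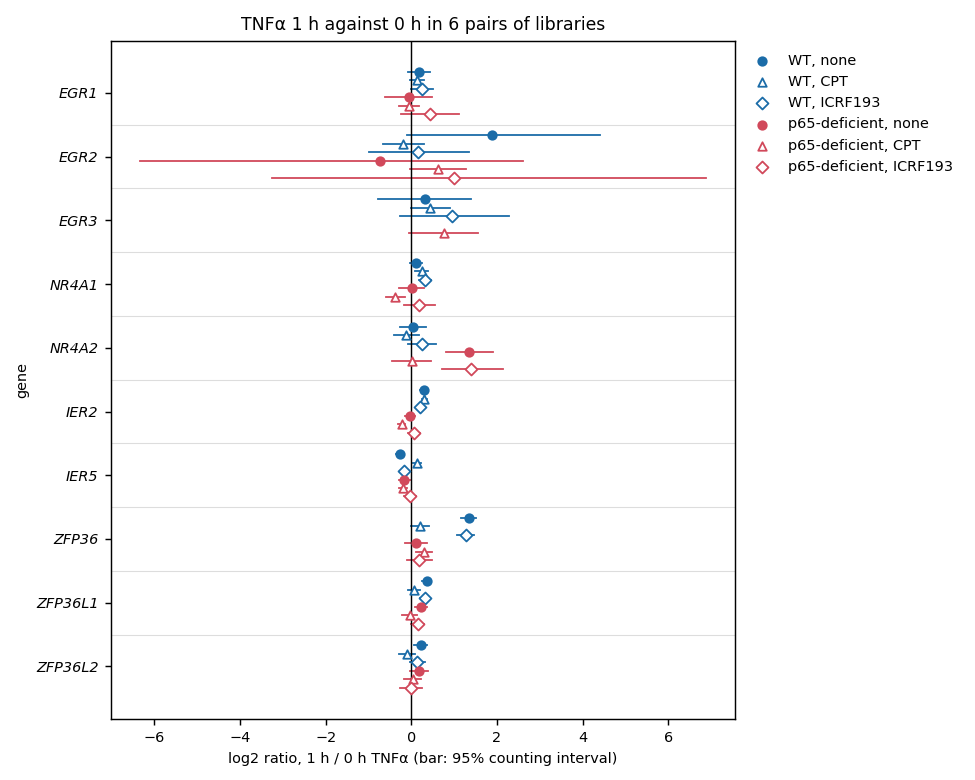
Log2 ratio of 1 h to 0 h of TNFα (x axis) for each gene (y axis) in the 6 pairs of libraries, with 95% counting intervals as bars and no point where a library held 0 reads. ZFP36 stands at 1.34 and 1.26 in the WT pairs without CPT and at 0.10 to 0.30 elsewhere, and NR4A2 at 1.35 and 1.40 in the p65-deficient pairs without CPT.

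Whether CPT acted differently with and without TNFα was tested over the same 4 pairs. No member passed by edgeR or DESeq2, where 0% of 13993 genes were called higher and 0.00715% lower. At an unadjusted p under 0.05, 1 member (ZFP36L1) and 0.586% of all genes passed. ZFP36 was at -0.59 (SE 0.50, edgeR adjusted p = 1). This value averages opposite pairs, since the CPT ratio at 0 and 1 h of TNFα was 0.14 and -0.99 in WT and 0.92 and 1.11 in the clone. Leaving out the WT pair at 0 h, so that the clone alone gave the effect at 0 h, gave ZFP36 at -0.97 (edgeR adjusted p = 0.00204) and NR4A1 at -0.99 (edgeR adjusted p = 0.00138).

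ICRF193 moved the members little. None of the 8 tested passed by edgeR or DESeq2, where 0.587% of 13631 genes were called higher and 1.58% lower. At an unadjusted p under 0.05, 3 members (EGR1, IER5, ZFP36L1) and 11.5% of all genes passed. EGR1 was at 0.22 (SE 0.09, edgeR adjusted p = 0.324), IER5 at 0.13 (SE 0.04, edgeR adjusted p = 0.057) and ZFP36L1 at -0.12 (SE 0.04, edgeR adjusted p = 0.18), and the other 5 lay between -0.07 and 0.08. Without the p65-deficient pair at 0 h IER5 was at 0.15 (edgeR adjusted p = 0.019) and ZFP36L1 at -0.15 (edgeR adjusted p = 0.0366). EGR2 rose from 3 to 13 reads in the WT pair at 0 h, a log2 ratio of 2.54 with a counting interval of 0.68 to 5.00, and had 9 and 16 reads at 1 h. Over all genes, total counts in place of TMM gave 100 higher and 163 lower, against 80 and 216.

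Of 44 other immediate early genes, among them the AP-1 genes, 43 were tested, and 21 rose and 13 fell with CPT. FOS, an AP-1 subunit, was at 4.30 (SE 0.07, edgeR adjusted p = 1.32e-12) and SGK1, a serum-induced kinase, at 3.80. MYC was at -2.35 and DUSP5, a nuclear dual-specificity phosphatase, at -2.38. The log2 fold change with CPT was higher in the clone than in WT for 26 of the 43 and lower for 4. The differences were 2.75 for CSRNP1, 2.05 for CYR61, -0.72 for ID1 and -0.81 for ARC. The 26 include genes called lower with CPT, MYC and DUSP5 among them. ID1, among the 4, was called lower with CPT as well. TNFα raised 20 and lowered 1 in WT cells. NFKBIZ, an NF-κB cofactor, was at 1.83 and JUN at 1.75, and MYC at 0.17 and ID1 at -0.43 stood at the other end. In the clone TNFα raised 3 of 42, JUN at 1.66, JUND at 0.37 and RHOB at 0.27, and lowered ID1 at -0.26. The TNFα effect was larger in WT for 4, JUNB (1.15), KLF10 (0.98), IER3 (0.69) and BTG2 (0.68). Between the lines 4 were higher in the clone, led by ID1 (0.85) and IER5L (0.73), and 19 lower, with CTGF at -1.21 and the third NR4A gene, NR4A3, at -1.71. ICRF193 raised BTG2 (0.41) and lowered 9, with TRIB1 at -0.39 and MYC at -0.34 the lowest. The CPT effect with TNFα differed for JUN alone (-1.88). All these values are log2 fold changes or their differences from edgeR at an adjusted p under 0.05. Medians over the 43 genes were 0.37 with CPT, 0.17 with TNFα in WT and 0.62 for the CPT difference, clone minus WT. Over all genes 23.2% were called higher and 25.1% lower with CPT, and 2.3% and 2.22% for that difference. Shares with TNFα were 0.613% and 0.0292% in WT, 0.28% and 0.218% in the clone, and 0.204% and 0.0146% for the difference. They were 15.2% and 16.9% between the lines and 0.587% and 1.58% with ICRF193.

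Lists of genes that act with the members were read in the same way. With CPT 23.2% of all genes tested were called higher and 25.1% lower, and the lists were not tested as sets. NAB2 is a corepressor of EGR proteins and itself an EGR target. It was lower with CPT (-0.95, SE 0.22, edgeR adjusted p = 0.00376), with ICRF193 (-0.24) and in the clone (-1.04). Its log2 fold change with CPT was more positive in the clone than in WT by 1.35, so the fall was not stronger there. Of 10 SRF and ternary complex factor genes 4 were lower with CPT, with MKL2 at -0.48 and MKL1 at -1.02. SRF itself was lower in the clone (-0.29), and its log2 fold change with CPT was more positive there by 0.62. Of 18 CCR4-NOT and decay partner genes 2 were higher with CPT, TOB1 (0.83) and PABPC1 (0.22), and 7 lower, with DCP1A at -0.64 and CNOT4 at -1.10. Of 5 NR4A partner genes tested, 3 were lower with CPT, NCOA2 (-0.21), RXRA (-0.28) and NCOA3 (-0.60).

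Across the 12 libraries, which differ in depth and in the 3 factors of the design, members of one group varied together to different degrees. Pearson correlations of log2 normalised counts were 0.93 for EGR1 with EGR2, 0.96 for EGR1 with EGR3, 0.91 for EGR1 with IER2, 0.75 for NR4A1 with NR4A2 and 0.69 for ZFP36 with ZFP36L2. ZFP36L1 ran against the EGR and IER genes, at -0.65 to -0.81, and was at -0.04 with ZFP36. Among about 11210 genes with a mean of at least 50 normalised reads, the most similar pattern to EGR1 was that of MYL6B (0.98), to EGR2 PRDX6 (0.97), to EGR3 RPS4X (0.99) and to IER2 RPS29 (0.99). NR4A1 was closest to NOLC1 (0.97) and NR4A2 to CLYBL (0.90). IER5 was closest to BAMBI (0.96), ZFP36 to MAPRE1 (0.91), ZFP36L1 to C3orf17 (0.98) and ZFP36L2 to GEM (0.94). These correlations are descriptions over 12 libraries that share the treatments and were not tested.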

How the data were processed

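Gene expression was measured by RNA-seq of total RNA in 12 libraries of HCT116 cells, 1 per combination of cell line, inhibitor and TNFα. The deposited values are raw counts: after trimming with Trimmomatic the authors aligned the reads to hg19 (the submitters' processing notes name STAR, its version not given in the sources used here) and counted those on exons per gene symbol with featureCounts 1.5.0. Per the file headers no strand option was set, so sense and antisense reads share a count. No annotated exon of another gene overlapped a member.

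Comparisons over matched pairs used edgeR 4.0.16 (TMM, filterByExpr, quasi-likelihood test, pair as block) with Benjamini-Hochberg adjustment over all genes tested. The SE given with an edgeR value was derived from the test, as the absolute log2 fold change divided by the square root of its F statistic. Pairs stand in for replicates, and p-values therefore measure how far such pairs spread, although the pairs also differ by design. Comparisons of 2 libraries used DESeq2 1.42.0 size factors and exact 95% Clopper-Pearson intervals (these hold counting error alone), for genes reaching 20 reads in 1 or more libraries. TPM used the summed exon lengths of the count tables. The tests were tested on simulated data. The simulated counts held no differences beyond the effect under test, and the changed genes had mean counts of at least 50. The simulation thus does not cover differences between pairs or genes with as few reads as EGR2 and EGR3. Alternatives were other normalisations, no low-count filter, DESeq2's Wald test, no block, thinning to the shallowest library and leaving out each pair. Likeness used log2(normalised count + 1).

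All 10 genes are named in each comparison. Of each gene list, counts are given with up to 2 genes of largest and 2 of smallest change among those called with a mean of at least 20 reads. The genes called higher with CPT in the list of SRF and ternary complex factor genes are not reported here. The genes and lists were chosen with earlier results of these data known.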

Additional observations from a re-analysis of the deposited data

Results flagged for a closer look

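The effect of CPT differed between the 2 cell lines, by the test of the difference itself, for 6 members. The log2 differences were 1.01 for EGR1, 1.30 for NR4A1, 0.60 for IER2, 0.63 for IER5, 1.46 for ZFP36 and 0.57 for ZFP36L2. Each is the p65-deficient clone minus WT, so the log2 fold change was higher in the clone. The direction of each difference was the same in both TNFα conditions, with 4 pairs of libraries in all. For NR4A1 and ZFP36L2 the 2 lines moved in opposite directions. The 1 h libraries of the clone held 8101212 to 8676666 reads, and with every library thinned to the shallowest each of the 6 stayed past the threshold. Other settings lost some of them. ZFP36 (adjusted p = 0.287) and ZFP36L2 (adjusted p = 0.222) did not pass with DESeq2. Without the pair block, IER2 (edgeR adjusted p = 0.052) and ZFP36 (edgeR adjusted p = 0.0597) did not. Loss of p65 and other features of the single clone cannot be told apart.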

How the results depend on the processing

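Of 1662 values of single genes under an alternative, 1562 kept their direction and side of the threshold, 50 changed sign, 29 passed the threshold where they had not and 21 no longer passed it. None of the 50 had passed the threshold before, and the cause was not tested. CPT calls of EGR1, EGR2, EGR3, IER2 and ZFP36L1 were kept under every alternative run. IER5 under CPT had an adjusted p of 0.0501 with DESeq2, and NR4A2 missed the threshold without the pair block (0.313) and with thinned libraries (0.0883).

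Counts of members called moved as follows. For TNFα in WT cells 1 was higher with DESeq2 and 0 without the block, against 3, and leaving out pairs gave 0 to 1 lower. In the clone 1 was higher without a low-count filter (NR4A2) and 0 to 1 with pairs left out. The TNFα difference between lines gave 1 larger with DESeq2 size factors, 2 without a filter, 1 with thinned libraries and 0 to 2 with pairs left out, and 1 smaller without a filter and 0 to 1 with pairs left out, against 0 and 0. Between the lines 1 was higher with total counts, without a filter and with thinned libraries, and 0 to 1 with pairs left out, and 2 were lower without the block, against 0 and 4. For ICRF193 1 was higher with total counts or thinning, and leaving out pairs gave 0 to 1 higher and 0 to 1 lower. Leaving out pairs gave 1 to 2 members lower with CPT and 0 to 2 lower for the CPT difference between TNFα times. In the untreated WT pair 1 member was past 2-fold with TNFα when 20 reads were required in that pair, against 2. The CPT difference between lines lost ZFP36 (adjusted p = 0.287) and ZFP36L2 (0.222) with DESeq2, and IER2 (0.052) and ZFP36 (0.0597) without the block.

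Signs changed in these settings, in log2 units. With thinned libraries, IER2 under ICRF193 was 0.0025, EGR1 with TNFα in the clone -0.0074, the TNFα difference of ZFP36L2 -0.047, ZFP36 between lines -0.018, and the CPT difference between lines -0.96 for EGR2 and -0.017 for ZFP36L1. Without the block, EGR1 with TNFα in the clone was -0.018, the TNFα difference of EGR3 0.069 and ZFP36 between lines -0.0073. The TNFα difference of EGR3 was 0.36 with DESeq2, and with total counts that of IER5 was -0.011 and that of ZFP36L2 -0.028.

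With 1 pair left out at a time, CPT values ranged from -0.21 to 0.36 for NR4A1, -0.023 to 0.70 for ZFP36 and -0.28 to 0.026 for ZFP36L2, and IER2 under ICRF193 from -0.035 to 0.0097. TNFα in WT gave -0.13 to 0.64 for EGR2 and -0.047 to 0.14 for NR4A2, and in the clone -0.048 to 0.16 for EGR1, -0.21 to 0.095 for NR4A1 and -0.14 to 0.022 for IER2. The TNFα difference ran from -0.20 to 4.59 for EGR3, -0.084 to 0.11 for IER5 and -0.056 to 0.10 for ZFP36L2, and ZFP36 between lines from -0.14 to 0.28. The CPT difference between lines ran from -0.73 to 1.40 for EGR2, -0.25 to 1.12 for NR4A2 and -0.098 to 0.21 for ZFP36L1. Between TNFα times it ran from -0.68 to 0.53 for EGR1, -1.53 to 0.72 for EGR2, -0.56 to 5.85 for EGR3, -0.99 to 0.51 for NR4A1, -0.46 to 0.25 for IER2, -0.26 to 0.59 for IER5, -1.56 to 0.55 for ZFP36 and -0.59 to 0.068 for ZFP36L2.

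Over all genes, calls without the block were 0 for TNFα in either line and 3 higher and 0 lower for ICRF193. DESeq2 called 25 higher and 0 lower for TNFα in WT and 18 and 65 for ICRF193. For the CPT difference between lines it called 116 higher and 32 lower in the clone, against 322 and 311. Depth limited EGR2 and EGR3 above all, with 0 to 19 reads per library outside CPT.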
